A study of Mus musculus with 50 samples.

Results

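A set of 9 genes of the mitochondrial route of programmed cell death and its surroundings was followed in RNA sequencing of mouse embryonic stem cells: Bax, Bak1, Bcl2, Bcl2l1, Bcl2l11, Mcl1, Casp9, Cela2a and Trp53. They are 9 of the 37310 genes in the count tables and were chosen by name on their counts and fold changes in these same libraries; Cela2a is there because its last exon overlaps the last exon of Casp9 on the other strand. The cells were J1, an untreated mouse embryonic stem cell line of strain 129S4/SvJae, grown on gelatin in medium with serum and LIF, a cytokine that keeps such cells undifferentiated. Total RNA was sequenced from the NSD1-/- line KO1, the NSD1-/- line KO2 and wild type J1 cells, with 2 libraries in each of the 3 groups. NSD1 is an enzyme that adds methyl groups to histone H3 at lysine 36, and the groups compared ask how its loss changes gene expression. How the lines were derived, whether each is a single clone and whether the libraries of a group are separate cultures is not in the labels. P-values here therefore measure the spread between libraries, and that spread may be technical. The other 44 of the 50 samples in the series, from chromatin assays, were not analysed here.

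In the mitochondrial route, BH3-only proteins such as Bim (Bcl2l11) sense stress and bind the BCL2 family. The guardians Bcl2, Bcl-xL (Bcl2l1) and Mcl1 hold back the pore formers Bax and Bak, which otherwise open the outer mitochondrial membrane and release cytochrome c. Cytochrome c assembles the apoptosome, which activates caspase 9, the product of Casp9. The transcription factor p53, the product of Trp53, is known to activate Bax and other death genes, and embryonic stem cells are known for being primed to die by this route. Cela2a encodes a digestive elastase of the pancreas and has no known part in it.

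Total counts per library were 1150089 to 1285487, of which 32.3% to 37.2% lay at AY036118, a locus that overlaps a copy of the ribosomal RNA precursor. The median tested gene held 23 to 27 counts, and 3 counts, the most that a count of 0 allows for, correspond to 2.43 to 2.67 CPM, counts per 1000000 of the effective library size. Apart from AY036118, 88.6% to 90.6% of counts lay at the 5431 genes that share exon bases with a gene on the other strand. Counts were therefore read as fragments of the strand opposite the counted gene, and each gene is given with any gene opposite. Under this reading, fragments of the gene opposite are counted only where they touch exons of the counted gene, and the rest go uncounted. Bax, Bcl2l1, Bcl2l11, Mcl1 and Trp53 have none annotated, and for them the tables cannot separate fragments of the gene itself from those of some unannotated RNA on the other strand. Nsd1 had 55 and 38 counts in KO1, 27 and 21 in KO2, and 21 and 25 in wild type, so these tables do not check the loss of the targeted gene. The 10 embryonic stem cell markers all had counts, which summed to 281 to 304 CPM in KO1, 309 to 341 CPM in KO2 and 303 to 317 CPM in wild type. The entries opposite 2 of these markers summed to 2018 to 2108 CPM in KO1, 5161 to 5203 CPM in KO2 and 4325 to 4466 CPM in wild type. By edgeR these 2 entries were both called lower in the lines together and in KO1, where 3.89% and 6.34% of all tested genes were called lower. In KO2 1 of them was called higher and 1 lower, and their sum lay above that of wild type. Of the 6 fibroblast markers 3 were at 0 and 3 had an entry opposite. Gm17329, opposite the collagen gene Col1a1, had 4 and 3 counts in KO1, 4 and 1 in KO2, and 78 and 94 in wild type (log2 fold change in the lines together -4.84 ± 0.30, adjusted p 1.84e-12, edgeR). Syn3, opposite Timp3, had 16 and 19 counts in KO1, 9 and 15 in KO2, and 75 and 97 in wild type (-2.60 ± 0.21, adjusted p 5.32e-10, edgeR). Both thus fell, while Apol7d, opposite Fn1, was not called (0.04 ± 0.05, adjusted p 0.730), and it holds most of the summed 1215 to 1300 CPM in KO1, 1180 to 1223 CPM in KO2 and 1305 to 1354 CPM in wild type. The part of either list in the results was not tested.

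The arrangement of both overlapping pairs is shown by sequence, because it decides which gene a fragment can belong to. Casp9 (mm9 chr4:141349527-141371891, plus strand) and Cela2a (chr4:141370877-141382075, minus strand) meet tail to tail and share 94 exon bases, chr4:141370877-141370970. These are the coding ends in the mm9 genome (NCBIM37), 5′ to 3′ on each gene's own strand, with the stop codon in capitals.
Casp9, chr4:141369573-141369602, plus strand: cggaaaaagctgttttttaaaacttcaTGA
Cela2a, chr4:141370953-141370970, minus strand: gtgatggcaaggaacTAA
The stop codons lie 1350 bases apart, so the shared bases hold the end of the Cela2a coding sequence and untranslated exon of Casp9. Bak1 (chr17:27156755-27165954, minus strand) lies wholly within the span of Ggnbp1 (chr17:27110162-27173323, plus strand), and 3 stretches of 79, 101 and 177 bases, 357 in all, are exon on both strands. The first line below is the coding start of Bak1, with the start codon in capitals, inside the 101-base stretch, and the second is the 79-base stretch of Bak1 coding sequence.
Bak1 start, chr17:27162772-27162801, minus strand: ATGgcatctggacaaggaccaggtcccccg
Bak1 shared exon, chr17:27159384-27159462, minus strand: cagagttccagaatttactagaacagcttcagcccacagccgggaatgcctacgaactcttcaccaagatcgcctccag

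**Figure D1:**
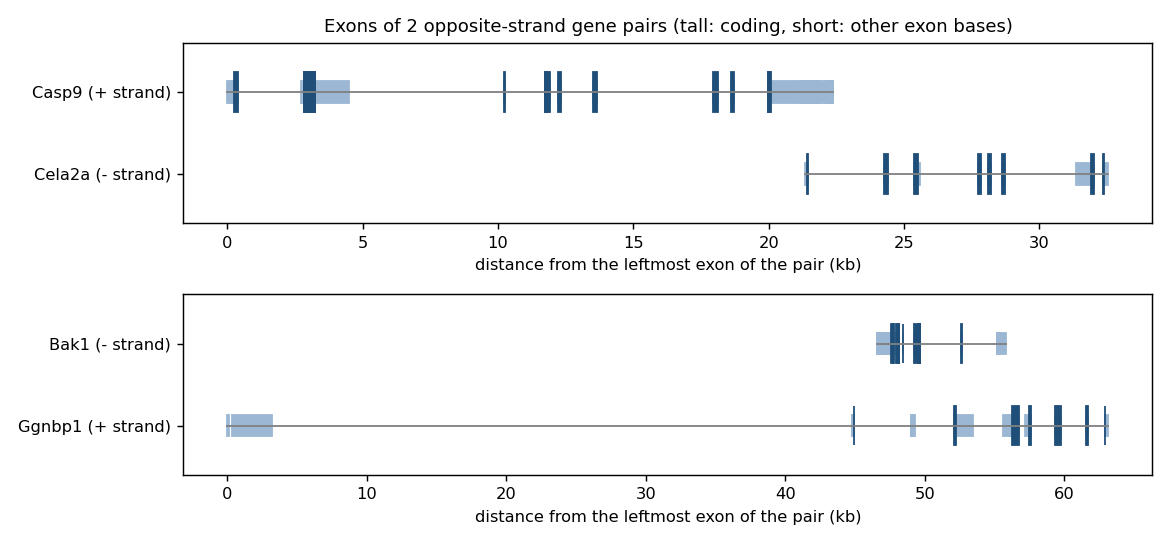
Exons of the overlapping pairs Casp9 and Cela2a (top) and Bak1 and Ggnbp1 (bottom), against distance in kb from the leftmost exon of each pair. Tall blocks are coding bases and short blocks other exon bases; the first pair overlaps at its tails over 94 bases, and Bak1 lies inside Ggnbp1 with 357 shared exon bases.

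Bax, which encodes the pore former that moves to mitochondria on a death signal, had the lower counts in both NSD1-/- lines. At Bax (chr7:52717065-52722268, minus strand) 20 and 16 fragments were counted in KO1, 11 and 17 in KO2, and 33 and 29 in wild type. All 4 knockout libraries lay below both wild type libraries, as they did for 10.1% of all tested genes. Scaled to library size, Bax averaged 14.8 ± 1.95 CPM in KO1, 11.9 ± 2.98 CPM in KO2 and 26.8 ± 2.98 CPM in wild type (SD, n = 2 each). The fitted log2 fold change was -0.85 ± 0.30 in KO1, -1.15 ± 0.32 in KO2 and -0.999 ± 0.26 in the lines together (standard errors). The ratio of summed, scaled counts of the lines together to wild type was 0.502, with an exact 95% interval of 0.349 to 0.724 that covers counting error only. In the same comparison 2 entries opposite fibroblast markers and 2 opposite embryonic stem cell markers fell, though in KO2 1 of the latter was called higher. The part of these entries in the value at Bax was not tested. In RNA from whole cultures, fewer cells of a kind and less RNA per cell cannot be told apart. Between the lines the difference was smaller than its error, at 0.30 ± 0.36 for KO1 minus KO2. Since the genes were chosen with these contrasts known, their own differences are given as descriptions without a p-value.

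Within 1 Mb of Bax, 52 other genes were tested, with a median log2 fold change of -0.02 in the lines together, and 0 of them were called there by edgeR. In KO1 2 of them were called and in KO2 0. Of all tested genes 6.62% were called in the lines together, 9.79% in KO1 and 8.98% in KO2. The nearest tested gene is Ftl1, for the light chain of the iron store ferritin, which ends 1811 bases from Bax on the same strand and belongs to a family with near-identical copies, so its counts are uncertain. Ftl1 had 59 and 59 counts in KO1, 54 and 61 in KO2, and 64 and 97 in wild type, and was not called in the lines together (log2 fold change -0.50 ± 0.17, adjusted p 0.0695, quasi-likelihood test of edgeR, Benjamini-Hochberg adjusted). Its wild type libraries differ from each other by more than the lower of them differs from the knockout libraries.

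The Bax promoter is printed because p53 is known to act on this gene, and it is taken from RefSeq on build GRCm38.p6, from 250 bases before to 50 after the start site. Capitals mark a match to the p53 decamer, the 10-base unit of the p53 binding site, which starts 201 bases before the start site.
Bax promoter, chr7:45466849-45467148, minus strand: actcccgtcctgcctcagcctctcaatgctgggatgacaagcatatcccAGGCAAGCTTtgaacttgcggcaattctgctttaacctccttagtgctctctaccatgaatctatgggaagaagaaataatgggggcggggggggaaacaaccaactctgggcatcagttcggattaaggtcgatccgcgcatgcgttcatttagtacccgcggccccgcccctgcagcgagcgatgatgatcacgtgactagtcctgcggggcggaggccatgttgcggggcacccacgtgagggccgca
The decamer, which reads the same on both strands, was found in 2 of the 12 RefSeq promoters of the 9 genes, those of Bax and Trp53, and in 8.36% of all 32851 mouse promoters of this length. A match describes letters in the sequence and does not show binding.

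The counts at Bak1, the gene of the other pore former, did not share the lower values of Bax. Bak1 had 39 and 28 counts in KO1, 18 and 33 in KO2, and 27 and 19 in wild type, and the groups overlapped. The means were 27.5 ± 5.70 CPM in KO1, 21.6 ± 7.89 CPM in KO2 and 19.9 ± 5.28 CPM in wild type (SD, n = 2 each). Its log2 fold change was 0.47 ± 0.30 in KO1, 0.14 ± 0.32 in KO2 and 0.30 ± 0.27 in the lines together. Under the strand reading above, these fragments are of the Ggnbp1 strand. Those of Bak1 transcripts would be counted at Ggnbp1, and only where they touch Ggnbp1 exons.

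Most fragments at the Bak1 locus were counted at Ggnbp1, which encodes a partner of the germ cell protein gametogenetin. Ggnbp1 held 1287 and 1206 counts in KO1, 1187 and 1307 in KO2, and 1054 and 1087 in wild type, and Bak1 is the only gene with exons opposite it. Bak1 took 1.49% to 2.94% of the counts of the pair in each library. Ggnbp1 averaged 1026 ± 20.8 CPM in KO1, 1068 ± 13.9 CPM in KO2 and 923 ± 1.36 CPM in wild type (SD, n = 2 each), with all 4 knockout libraries above both wild type libraries, as in 8.48% of tested genes. By the quasi-likelihood test of edgeR, Benjamini-Hochberg adjusted, it rose in the lines together (log2 fold change 0.18 ± 0.05, adjusted p 0.0250) and in KO2 (0.21 ± 0.06, adjusted p 0.0197). In KO1 the difference was 0.15 ± 0.06 with an adjusted p of 0.0970, and the lines did not differ detectably from each other (-0.06 ± 0.06, adjusted p 0.530). With the 4 knockout libraries as 1 group the adjusted p of Ggnbp1 in edgeR was 0.731. The call in the lines together was lost without either KO1 library or either wild type library, at adjusted p 0.0668 to 0.117, and with no filter or by DESeq2, at 0.133 and 0.153. That in KO2 was lost without KO2 replicate 2 or wild type replicate 1, with no filter and by DESeq2, at adjusted p 0.0516 to 0.0994.

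The guardians had few counts, and the knockout libraries overlapped those of wild type. Mcl1 (chr3:95462643-95467099, plus strand), whose protein turns over fast and protects embryonic cells, had 25 and 18 counts in KO1, 17 and 14 in KO2, and 19 and 23 in wild type, so both KO2 libraries were below wild type. Its log2 fold change was -0.03 ± 0.31 in KO1, -0.44 ± 0.34 in KO2 and -0.24 ± 0.28 in the lines together. Bcl2l1 (chr2:152593052-152657464, minus strand), for Bcl-xL, had 16 and 8 counts in KO1, 8 and 3 in KO2, and 3 and 12 in wild type, a spread between the wild type libraries as wide as that between groups. Leaving out a single library moved its log2 fold change in the lines together, 0.08 ± 0.55, to anywhere from -0.57 to 1.35. Bcl2 (chr1:108434755-108610851, minus strand) had 0 counts in all 6 libraries, and D630008O14Rik opposite it had at most 1.

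Bcl2l11 (chr2:127951774-127988283, plus strand), for the BH3-only protein Bim, had 0 and 1 counts in KO1, 0 and 0 in KO2, and 0 and 1 in wild type. Bcl2 and Bcl2l11 were below the filter on low counts and were not tested, so differences in them were not detectable at this depth.

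**Figure D2:**
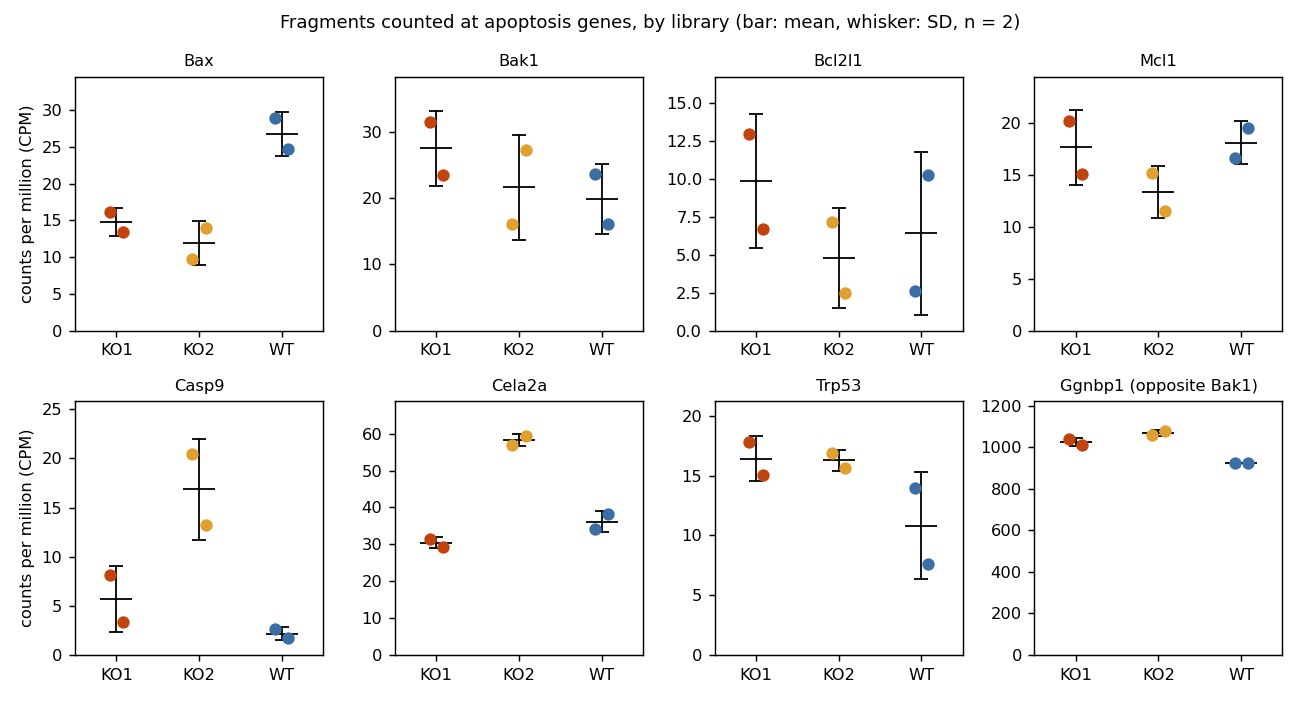
CPM in each library (points) at 7 of the 9 genes and at Ggnbp1 opposite Bak1, for KO1, KO2 and wild type (WT), with the mean (bar) and SD (whisker, n = 2). Bax is lower in all 4 knockout libraries, as in 10.1% of tested genes, and Casp9 and Cela2a are highest in both KO2 libraries. All 4 knockout libraries lie above wild type at Casp9, Trp53 and Ggnbp1, as in 8.48% of tested genes.

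Counts at Casp9, the gene of the caspase that starts the cascade at the apoptosome, were higher in KO2. At Casp9, 10 and 4 fragments were counted in KO1, 23 and 16 in KO2, and 3 and 2 in wild type. All 4 knockout libraries lay above both wild type libraries, as in 8.48% of tested genes. The KO2 libraries were highest, and 1 KO1 library was within 1 count of wild type. The means were 5.72 ± 3.35 CPM in KO1, 16.8 ± 5.17 CPM in KO2 and 2.16 ± 0.654 CPM in wild type (SD, n = 2 each), the last of them below the level of 3 counts. Casp9 passed the filter on low counts through the knockout libraries alone, since no wild type library reached 10 counts. The log2 fold change was 2.90 ± 0.58 in KO2, 1.37 ± 0.72 in KO1 and 2.14 ± 0.59 in the lines together, and KO1 minus KO2 was -1.52 ± 0.46. As a ratio of summed, scaled counts, KO2 stood at 7.75 times wild type (exact 95% interval 3.05 to 25.2) and KO1 at 2.67 times (0.910 to 9.48), an interval that includes equal levels.

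Counts at Cela2a were also higher in KO2 and not in KO1. Under the strand reading above, fragments of Casp9 transcripts would be counted at Cela2a, and those of Cela2a at Casp9, only where they touch exons of the other gene. Cela2a had 39 and 35 counts in KO1, 64 and 72 in KO2, and 39 and 45 in wild type, so both KO2 libraries stood apart from the 4 others. The means were 30.4 ± 1.55 CPM in KO1, 58.2 ± 1.64 CPM in KO2 and 36.2 ± 2.923 CPM in wild type (SD, n = 2 each). The log2 fold change was 0.68 ± 0.20 in KO2, -0.25 ± 0.23 in KO1 and 0.22 ± 0.19 in the lines together, and KO1 minus KO2 was -0.93 ± 0.21. Of the counts at the pair, Casp9 took 20.4% and 10.3% in the KO1 libraries, 26.4% and 18.2% in the KO2 libraries, and 7.14% and 4.26% in the wild type libraries. Of 11 pancreatic acinar genes, Cela2a included, 7 had 0 counts in all 6 libraries and only Cela2a passed the filter, and the summed list was 29.3 to 33.1 CPM in KO1, 57.0 to 59.4 CPM in KO2 and 34.1 to 39.1 CPM in wild type.

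Of the 12 other genes tested within 1 Mb of Casp9, Cela2a included, 3 were called in KO2, 1 in KO1 and 5 between the lines by edgeR, not all of them named here. Of all tested genes 8.98% were called in KO2, 9.79% in KO1 and 19.3% between the lines. Cela2a, chosen with these contrasts known, is among those called in KO2 and between the lines. The median log2 fold change of the 12 was 0.04 in KO2. AI507597 (chr4:141169941-141171519), opposite Tmem82, had 61 and 55 counts in KO1, 92 and 113 in KO2, and 52 and 45 in wild type, and both KO2 libraries lay above the others. By the quasi-likelihood test of edgeR, Benjamini-Hochberg adjusted, it rose in KO2 (log2 fold change 1.07 ± 0.18, adjusted p 0.000139) and was not called in KO1 (0.19 ± 0.21, adjusted p 0.648). The lines themselves differed at AI507597 (KO1 minus KO2 -0.88 ± 0.18, adjusted p 0.000494), by the same edgeR test. It was chosen after its values were seen. Over the 319 tested genes of chromosome 4 the median shift relative to all tested genes was -0.03 in KO2 and 0.02 in KO1.

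Trp53 (chr11:69393861-69405375, plus strand) had 22 and 18 counts in KO1, 19 and 19 in KO2, and 16 and 9 in wild type. All 4 knockout libraries lay above both wild type libraries, as in 8.48% of tested genes. However, the wild type libraries differed from each other by more than the group means did. The means were 16.4 ± 1.91 CPM in KO1, 16.3 ± 0.897 CPM in KO2 and 10.8 ± 4.49 CPM in wild type (SD, n = 2 each). The log2 fold change was 0.61 ± 0.37 in KO1, 0.59 ± 0.37 in KO2 and 0.60 ± 0.33 in the lines together, and without a single library it ranged from 0.23 to 1.09. Chromosome 11, with 560 tested genes, had a median shift of 0.41 in KO2 and 0.06 in KO1 relative to all tested genes, and the 38 tested genes within 1 Mb of Trp53 had a median log2 fold change of 0.31 in KO2 and -0.06 in KO1. The part of this shift in the value at Trp53 was not tested.

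**Figure D3:**
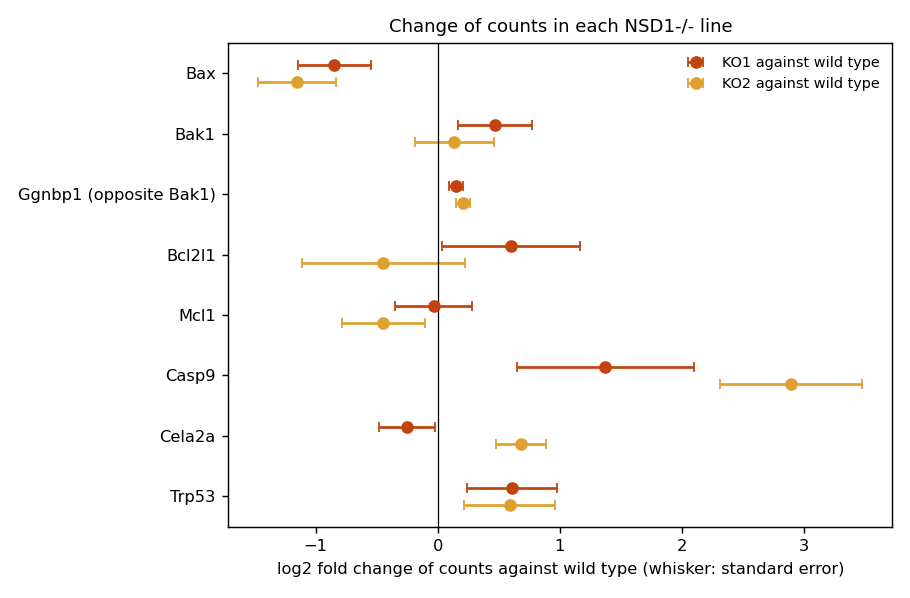
Log2 fold change of counts against wild type in KO1 and KO2 (points) with standard errors (whiskers) for the 7 genes that passed the filter and for Ggnbp1. Bax lies below 0 in both lines, and Casp9 and Cela2a differ between KO1 and KO2.

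Of the 9 genes, 7 passed the filter. In the lines together 2 of them, Bax and Casp9, had an adjusted p under 0.05, where 6.62% of the 5034 tested genes did. KO1 against wild type had 0 of 7 by edgeR, against 9.79% of tested genes, and 0 by DESeq2. In KO2 there were 3, Bax, Casp9 and Cela2a, against 8.98%, and between KO1 and KO2 there were 2, Casp9 and Cela2a, both lower in KO1, against 19.3% in either direction, 7.93% higher and 11.4% lower. Because these contrasts chose the genes, nothing is read from these counts. They also rest on single libraries: in the lines together Bax was no longer under the threshold without KO1 replicate 2 or wild type replicate 1, and Casp9 without KO1 replicate 1, KO2 replicate 1 or either wild type library. In KO2 Bax was no longer under it without KO2 replicate 1 or wild type replicate 1, and Cela2a without any one of the KO2 and wild type libraries or with no filter. Between the lines Casp9 was no longer under it without KO1 replicate 2 or KO2 replicate 1. With DESeq2 none of the 7 was under it in the lines together or in KO2, and Cela2a alone was between the lines. DESeq2 gave some genes no adjusted p, and such a gene could not be under the threshold. Of the 25 tested genes of the apoptosis and p53 lists below, which include 6 of the 7, these were 14 in the lines together. In KO1 they were 12, and in KO2 and between the lines 15 each. Across single-library removals the log2 fold change in the lines together was -0.88 to -1.14 at Bax and 1.76 to 2.46 at Casp9.

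Per kb of exon of the counted gene, the 7 entries that passed the filter stood in KO1 at 17.7 CPM for Cela2a, 11.4 for Bak1, 11.05 for Bax, 5.07 for Mcl1, 4.06 for Trp53, 2.07 for Bcl2l1 and 1.10 for Casp9. In KO2 they stood at 33.8 CPM for Cela2a, 8.98 for Bak1, 8.89 for Bax, 4.03 for Trp53, 3.83 for Mcl1, 3.24 for Casp9 and 1.01 for Bcl2l1. In wild type they stood at 21.0 CPM for Cela2a, 20.0 for Bax, 8.26 for Bak1, 5.19 for Mcl1, 2.68 for Trp53, 1.35 for Bcl2l1 and 0.416 for Casp9. Of the neighbours in these orders, Bak1 and Bax, and Mcl1 and Trp53, differed by less than the larger of their SDs in either line, as did Mcl1 and Casp9 in KO2, and Cela2a and Bax, and Bcl2l1 and Casp9, in wild type. These are levels of the counted strand and not an order of the genes' own transcripts. With the strand turned, fragments of Bak1 would fall in the Ggnbp1 entry and those of Casp9 in the Cela2a entry. The Ggnbp1 entry stood at 148 CPM per kb of Ggnbp1 exon in KO1, 154 in KO2 and 133 in wild type. Of exon fragments, only those touching the shared 357 of 2407 Bak1 bases, or 94 of 5197 Casp9 bases, would be counted there. These values are therefore not levels of Bak1 or Casp9. Bax, Bcl2l1, Mcl1 and Trp53, with no gene opposite, could not be turned.

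Other genes of the pathway were taken from 8 lists on apoptosis and p53 with 86 genes, of which 85 were in the tables. Leaving the 9 genes above aside, 19 counted genes of these lists were tested. In the lines together 0 of them rose and 2 fell, Htra2 and Endog, and the median log2 fold change of the 19 was -0.23, where that of all tested genes was -0.01. In KO1 0 rose and 3 fell, and in KO2 1 rose and 0 fell. Of 15 tested genes that lie opposite a list gene, 1 rose (Ggnbp1) and 2 fell in the lines together, 0 rose and 4 fell in KO1, and 3 rose and 0 fell in KO2. Those in KO2 were Ggnbp1, D2Wsu81e (opposite Endog) and Tubgcp4, and those in KO1 were Loxl3, Aup1, E230016M11Rik and Gm10574. The calls at D2Wsu81e, Tubgcp4 and Aup1 were each lost without a single library: D2Wsu81e without KO2 replicate 1 or wild type replicate 1, Tubgcp4 without any library but KO1 replicate 1, and Aup1 without KO1 replicate 2. They were also lost by DESeq2, at adjusted p 0.166, 0.257 and 0.0890. Tubgcp4 was lost in edgeR with no filter, at 0.0693, and with the replicate number as a block, at 0.0532. The shares of all tested genes called higher and lower were 2.72% and 3.89% in the lines together, 3.46% and 6.34% in KO1, and 5.01% and 3.97% in KO2.

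Of the 4 tested genes of the apoptosome and caspase list, Htra2 and Endog fell in KO1, and Diablo (log2 fold change -0.37 ± 0.47) and Casp9 were not called there. Htra2 (chr6:83001260-83005267, opposite Loxl3) encodes a mitochondrial protease that binds inhibitors of caspases. It had 513 and 441 counts in KO1, 894 and 936 in KO2, and 721 and 848 in wild type, and by edgeR with Benjamini-Hochberg adjustment fell in KO1 (log2 fold change -0.78 ± 0.08, adjusted p 1.47e-08) but was not called in KO2 (0.21 ± 0.07, adjusted p 0.0605). Fragments at Loxl3, which would be those of Htra2 under the strand reading above, followed the same order, with 379 and 339 counts in KO1, 748 and 824 in KO2, and 701 and 696 in wild type. By the same edgeR test Loxl3 fell in KO1 (-1.03 ± 0.08, adjusted p 7.35e-11) and was not called in KO2 (0.16 ± 0.07, adjusted p 0.165). The mean of the lines, given as the lines together, was -0.43 ± 0.06 (adjusted p 1.81e-05), with KO1 below wild type and KO2 not. Endog (chr2:30027013-30029589, opposite D2Wsu81e), for a mitochondrial nuclease, had 431 and 343 counts in KO1, 563 and 589 in KO2, and 516 and 567 in wild type. Endog fell in KO1 by edgeR with Benjamini-Hochberg adjustment (-0.55 ± 0.09, adjusted p 4.19e-05) and not detectably in KO2 (0.08 ± 0.08, adjusted p 0.614). Fragments at D2Wsu81e, which would be those of Endog under the strand reading, did not follow: they numbered 106 and 120 in KO1, 155 and 142 in KO2, and 99 and 107 in wild type. By edgeR D2Wsu81e was not called in KO1 (0.07 ± 0.15, adjusted p 0.859) and rose in KO2 (0.52 ± 0.15, adjusted p 0.0210). In the lines together Htra2 changed by -0.29 ± 0.06 (adjusted p 0.00432, edgeR) and Endog by -0.24 ± 0.07 (adjusted p 0.0457). Without wild type replicate 2 the adjusted p in the lines together was 0.254 for Htra2 and 0.346 for Endog, and for Endog it was also over 0.05 without KO1 replicate 2 or KO2 replicate 2. By DESeq2 it was 0.0731 for Htra2 and 0.336 for Endog, and for Endog it was 0.0579 with no filter. In edgeR it was also over 0.05 for Endog with DESeq2 size factors (0.0580), the replicate number as a block (0.0548) and AY036118 left out (0.0553). With the 4 knockout libraries as 1 group, a choice made after seeing the data, edgeR called neither Htra2, Endog nor Loxl3. The adjusted p was then 0.918 for Htra2, 0.870 for Endog and 0.900 for Loxl3.

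Among BH3-only genes, Bid (chr6:120841948-120866871, opposite Bcl2l13), whose product links death receptors to Bax, had 103 and 108 counts in KO1, 201 and 208 in KO2, and 180 and 173 in wild type. Bid fell in KO1 (log2 fold change -0.81 ± 0.13, adjusted p 7.07e-05, edgeR with Benjamini-Hochberg adjustment) and was not called in KO2 (0.20 ± 0.12, adjusted p 0.323). Fragments at Bcl2l13, which would be those of Bid under the strand reading, numbered 78 and 83 in KO1, 67 and 91 in KO2, and 94 and 84 in wild type. Bcl2l13 was not called by edgeR in KO1 (-0.21 ± 0.17, adjusted p 0.520) or in KO2 (-0.18 ± 0.17, adjusted p 0.580). Neither Bad, which binds Bcl-xL, nor Gpr137 opposite it was called in either line. The only inhibitor of apoptosis tested, Birc6, had 4 to 13 counts and was not called.

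On the p53 side, Trp53bp1 (chr2:121019017-121097143, opposite Tubgcp4), for a DNA break response protein that binds p53, had 774 and 763 counts in KO1, 847 and 983 in KO2, and 741 and 707 in wild type. It rose in KO2 (log2 fold change 0.33 ± 0.07, adjusted p 0.00148) and was not called in KO1 (0.02 ± 0.07, adjusted p 0.912) by edgeR with Benjamini-Hochberg adjustment. Tubgcp4, the entry that would hold Trp53bp1 fragments under the strand reading, also rose in KO2 (0.36 ± 0.11, adjusted p 0.0444, edgeR) and was not called in KO1 (-0.08 ± 0.12, adjusted p 0.750). E230016M11Rik (chr6:66986593-67030648), opposite the p53 target Gadd45a, had 39 and 27 counts in KO1, 64 and 58 in KO2, and 73 and 66 in wild type, and fell in KO1 (-1.14 ± 0.22, adjusted p 0.000601) and in the lines together (-0.67 ± 0.18, adjusted p 0.0178), by the same edgeR test. The second of these calls was lost without KO1 replicate 2 or wild type replicate 1, at adjusted p 0.0938 and 0.207, and by DESeq2, at 0.221. In KO2 E230016M11Rik was not called (-0.20 ± 0.19, adjusted p 0.597, edgeR). With the 4 knockout libraries as 1 group its adjusted p in edgeR was 0.680. Of the p53 targets tested by counted gene apart from Bax, Zmat3, Trp53inp1, Gadd45a and Ddb2 were not called in either line. Gm10574, opposite the death receptor adaptor gene Fadd, had 118 counts in KO1, 173 in KO2 and 185 in wild type, and fell in KO1 (-0.72 ± 0.19, adjusted p 0.0120, edgeR), though not without KO1 replicate 2 or wild type replicate 2. By DESeq2 its adjusted p in KO1 was 0.131. The voltage-dependent channel genes Vdac1 and Vdac2 of the outer membrane, with 9 to 32 counts a library, were not called.

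Htra2, Loxl3, Bid, Aup1 opposite Htra2, and E230016M11Rik lie on chromosome 6, where the median of 259 tested genes was shifted by -0.42 in KO1 and by -0.02 in KO2 relative to all tested genes. Its part in these values was not tested. KO1 and KO2 were compared with the same wild type libraries.

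**Figure D4:**
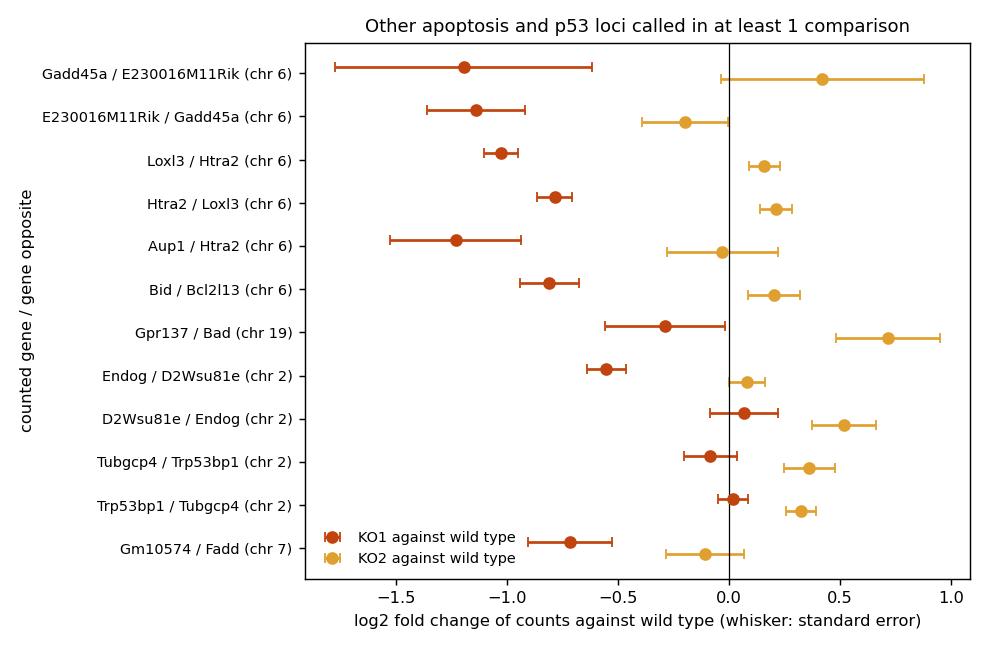
Log2 fold change of counts against wild type in KO1 and KO2 (points, standard errors as whiskers) at 12 other apoptosis and p53 entries that passed the test in at least 1 comparison. Each is given as counted gene / gene opposite with the chromosome, and several share a locus. All 12 entries lie lower in KO1 than in KO2, but they were plotted because they were called and those that share a locus are not independent. Between the lines 11.4% of all tested genes were called lower in KO1 and 7.93% higher.

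The tested genes with the profile over the 6 libraries most like that of Bax, among 2554 with a mean of at least 20 CPM, were Abi1 (opposite Pdss1), Leng1 (opposite Cnot3) and Lrsam1 (opposite Rpl12). Their Pearson correlations of log2 CPM with Bax were 0.993, 0.989 and 0.981. For Casp9 they were Slc25a11 (opposite Rnf167) at 0.990, Ahsa2 (opposite Usp34) at 0.986 and Mir328 at 0.980. These are the highest of many correlations over 6 libraries and describe likeness alone.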

How the data were processed

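The authors deposited 1 table of raw, unscaled counts per gene for each library. FeatureCounts 2.0.1 had counted read pairs at exons of the GENCODE mouse release 1 genes (mm9), with its strand option at 1, per the file headers. The submitters' processing notes list bedtools 2.92.2, GATK 4.1.4.0, Bowtie2, STAR 2.5.4b, Trim Galore 0.6.4 and featureCounts 2.0.0 without saying what each did. Strandedness of the library kit: not given in the sources used here. All 37310 gene spans equalled those of the annotation used for coordinates.

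Counts were fitted in R 4.3.3 with edgeR 4.0.16 on all 6 libraries and 3 group means: filterByExpr with a minimum count of 10, TMM scaling, a robust quasi-likelihood test, and Benjamini-Hochberg adjustment over 5034 genes, called under 0.05. This left 3 residual degrees of freedom. Log2 fold changes are from this fit. CPM uses the effective library size. The gene opposite is the other-strand gene that shares most exon bases, with a minimum of 50. Genes named from the lists were up to 4 called genes per list or else up to 2 of the most abundant. The called entries opposite embryonic stem cell markers are given without names. The 9 genes and those opposite them were named whatever their values. The 9 genes and the lists were chosen with earlier results of these data known. Some results near Casp9 are not reported here. The steps were tested on simulated counts. Alternatives were DESeq2 1.42.0, DESeq2 size factors, no filter, a replicate block, AY036118 left out, an overlap of 200 bases and each library left out.

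Replicates of a group differed beyond sampling noise over all tested counts, with chi-square per degree of freedom of 2.15 in KO1, 1.90 in KO2 and 1.50 in wild type. These values include AY036118, whose share was 33.3% and 37.2% in the KO1 libraries. The spread at the other genes was not measured apart from it.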

Additional observations from a re-analysis of the deposited data

Results flagged for a closer look

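KO1 and KO2 carry the same genotype label, and the values below are those at which their effects against wild type differed by the quasi-likelihood test of edgeR, Benjamini-Hochberg adjusted, where 19.3% of 5034 tested genes did. Each is KO1 minus KO2 on the log2 scale. Of the 9 apoptosis genes, these were Casp9 at -1.52 and Cela2a at -0.93, given as descriptions because the genes were chosen with this contrast known. The Casp9 difference was no longer called without KO1 replicate 2 or KO2 replicate 1, and ranged from -1.05 to -2.27 over single-library removals.

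Near Casp9, the difference was -0.88 at AI507597. On chromosome 6, where the median of tested genes was shifted by -0.43 between the lines, the differences were -1.61 at Gadd45a, -0.94 at E230016M11Rik opposite it, -0.998 at Htra2, -1.19 at Loxl3, -1.20 at Aup1 and -1.01 at Bid. Elsewhere they were -0.63 at Endog, -0.45 at D2Wsu81e opposite it, -0.31 at Trp53bp1, -0.44 at Tubgcp4 opposite it, -1.005 at Gpr137 opposite Bad, -0.61 at Gm10574 and 0.89 at Nsd1. Gadd45a rests on few counts, with 3 and 6 in KO1, 14 and 13 in KO2, and 7 and 13 in wild type. The calls at Gadd45a, E230016M11Rik, D2Wsu81e, Tubgcp4, Gpr137, Gm10574 and Nsd1 were each lost on leaving out at least 1 single library, with an adjusted p of up to 0.251 at Gadd45a and 0.0788 at E230016M11Rik. By DESeq2 the calls at D2Wsu81e, Tubgcp4, Gm10574 and Nsd1 were lost as well, at adjusted p 0.0574 to 0.169. What sets the lines apart was not tested.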

How the results depend on the processing

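The replicate numbers showed no pairing of the libraries: deviations of replicate 1 correlated between groups at -0.036, 0.011 and -0.0069. With so few counts in most genes, these values cannot exclude a shared batch. With the replicate number as a block, 321 genes were called in the lines together, 482 in KO1, 416 in KO2 and 935 between the lines, against 333, 493, 452 and 971 without it. DESeq2's Wald test called 115, 207, 170 and 417. With the 4 knockout libraries as 1 group, a choice made after seeing the data, 6 genes were called. Leaving out single libraries gave 213 to 362 genes in the lines together, 280 to 591 in KO1, 328 to 435 in KO2 and 561 to 1065 between the lines.

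Over all list genes, the 9 apoptosis genes included, 4 counted genes were called in the lines together, against 0 by DESeq2 (5 at an unadjusted p under 0.05) and 0 with 1 knockout group (2 unadjusted), and 1 to 4 without single libraries. In KO1 there were 3, also without any single library. In KO2 there were 3, against 1 by DESeq2 and 2 to 4 without single libraries, and between the lines 6, against 4 to 6. These counts include Bax and Casp9, which were chosen with these contrasts known. Without the 9 genes, the counted genes called by edgeR were 2 in the lines together, 3 in KO1, 1 in KO2 and 5 between the lines. Of all tested genes 6.62% were called in the lines together, 9.79% in KO1, 8.98% in KO2 and 19.3% between the lines. Of the 25 tested counted genes DESeq2 gave no adjusted p to 14 in the lines together and 12 in KO1. In KO2 and between the lines it gave none to 15. Of the genes opposite list genes, 3 were called in the lines together, against 1 by DESeq2, 0 with 1 knockout group (0 unadjusted) and 1 to 3 without single libraries. In KO1 there were 4, against 2 by DESeq2 and 2 to 4. In KO2 there were 4, against 0 by DESeq2 (4 unadjusted), 1 with no filter on low counts and 1 to 4. Between the lines there were 8, against 5 by DESeq2. Cela2a, opposite Casp9 and 1 of the 9 genes, is among those called in KO2 and between the lines. No called value changed sign under any alternative run. Depth limits all of this: Casp9, Trp53, Bcl2l1, Bcl2l11 and Bcl2 rest on at most 23 counts a library.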
